A study of Mus musculus with 30 samples.

Results

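The Sprouty and Spred genes Spry1, Spry2, Spry4, Spred1, Spred2 and Spred3 were examined in mouse tail-tendon fibroblasts. All 6 were found by gene name among the 35973 genes of the blebbistatin table and the 35972 of the Y27632 table. The cells were primary and wildtype, grown in 10% serum and treated in medium with 0.1% serum. RNA libraries came from 3 groups of 3: the solvent DMSO, blebbistatin at 10 µM, which inhibits non-muscle myosin II, and Y27632 at 30 µM, a small-molecule kinase inhibitor. The same treatments were also profiled by ATAC, an assay of open chromatin, in 9 libraries, and 12 genomic DNA libraries in triplicate covered doxycycline at 10 ng/mL and blebbistatin at 10 µM, each alone, both together and neither drug. The labels do not say what doxycycline induced, how long any treatment lasted, or whether replicates were separate cultures, so the spread between replicates may be technical.

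Sprouty and Spred proteins are inhibitors of the signalling route that runs from receptor tyrosine kinases through Ras and Raf to the kinase ERK. Several of them are transcribed in response to ERK activity, which makes them feedback inhibitors and a common readout of the pathway. Sproutys act near the receptor and Raf, and Spreds bring the Ras inactivator neurofibromin to the membrane. The family was chosen when opposite RNA changes of Spry1 under blebbistatin and Y27632 were already known. The RNA values of the 6 genes in the comparisons among DMSO, blebbistatin and Y27632 are therefore a description, given without p-values. The chromatin sites come from other libraries.

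The promoters are shown because a site with a higher level under doxycycline lay over 3 of them and because Spry1 and Spry2 differed in direction under blebbistatin. RefSeq sequences for GRCm38.p6 were matched for 5 of the 6 genes, all but Spry4, and the 250 bases before each start are printed 5′ to 3′ on the gene's strand. They lie at chr3:37639697-37639946 (plus strand), chr14:105896820-105897069 (minus strand), chr2:117120821-117121070 (plus strand) and chr11:19924192-19924441 (plus strand). Capitals mark any match, on either strand, to the TEAD motif GGAATG, the AP-1 motif TGANTCA, the ETS motif CCGGAA or the CRE motif TGACGTCA. The TEAD and ETS motifs can overlap each other.
Spry1: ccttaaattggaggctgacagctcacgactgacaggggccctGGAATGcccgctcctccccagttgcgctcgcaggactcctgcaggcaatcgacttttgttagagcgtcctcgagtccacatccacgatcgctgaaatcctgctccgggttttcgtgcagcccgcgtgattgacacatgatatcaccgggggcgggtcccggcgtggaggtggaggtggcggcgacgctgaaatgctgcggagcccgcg
Spry2: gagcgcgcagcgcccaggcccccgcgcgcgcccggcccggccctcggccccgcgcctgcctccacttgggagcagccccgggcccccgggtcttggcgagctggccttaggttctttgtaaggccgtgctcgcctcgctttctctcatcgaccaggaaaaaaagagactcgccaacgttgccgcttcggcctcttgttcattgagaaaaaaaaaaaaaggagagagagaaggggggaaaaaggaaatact
Spred1: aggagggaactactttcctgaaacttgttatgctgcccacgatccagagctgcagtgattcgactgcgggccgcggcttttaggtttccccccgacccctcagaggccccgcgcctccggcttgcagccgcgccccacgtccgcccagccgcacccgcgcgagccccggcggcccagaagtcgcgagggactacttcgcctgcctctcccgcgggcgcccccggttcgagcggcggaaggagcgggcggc
Spred2: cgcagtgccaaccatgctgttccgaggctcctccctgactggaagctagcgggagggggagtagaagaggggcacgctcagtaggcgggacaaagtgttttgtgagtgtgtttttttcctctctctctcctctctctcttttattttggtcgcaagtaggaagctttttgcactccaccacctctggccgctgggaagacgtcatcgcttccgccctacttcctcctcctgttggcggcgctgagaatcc

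One match was found in these windows and in that of Spred3, a TEAD motif in Spry1 that began 208 bases before the start. TEAD proteins are the DNA-binding partners of Yap and Taz. The same letters occur in 12.64% of the 32851 promoter windows of this length, against 6.75% for the AP-1 motif, 12.03% for the ETS motif and 1.55% for the CRE motif. A match describes letters and not a bound site.

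Spry1 was the member whose direction differed between the inhibitors. Its normalised counts (reads divided by a size factor per library) were 1037, 1012 and 976 in DMSO and 533, 585 and 616 with blebbistatin. In the Y27632 table, which was scaled separately, the DMSO libraries had 1078, 1050 and 1015 and the Y27632 libraries 2457, 2320 and 2635. All blebbistatin libraries were below, and all Y27632 libraries above, every DMSO library. Spry1 encodes a Sprouty that restrains growth factor signalling in kidney and muscle development. Its log2 change was -0.80 with a standard error (SE) of 0.060 with blebbistatin and 1.24 with an SE of 0.048 with Y27632. Compared directly, Spry1 was lower with blebbistatin than with Y27632 by a log2 difference of -2.02 (SE 0.057, edgeR), a ratio of 0.246.

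Spry2 and Spry4 were higher with both inhibitors. Spry2, a Sprouty that is phosphorylated on receptor activation and binds the ubiquitin ligase Cbl, had normalised counts of 1306, 1216 and 1349 in DMSO and 1779, 1639 and 1787 with blebbistatin. With Y27632 it had 3374, 2865 and 3619, against 1357, 1262 and 1402 in DMSO of that table. No library of either treated group reached down to the DMSO libraries. The log2 changes of Spry2 were 0.43 (SE 0.051) with blebbistatin and 1.29 (SE 0.070) with Y27632.

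Spry4, a Sprouty often used as a readout of fibroblast growth factor signalling, had normalised counts of 306, 324 and 339 in DMSO and 551, 570 and 628 with blebbistatin. With Y27632 it had 1245, 1063 and 1333, against 318, 337 and 352 in DMSO of that table. Its log2 changes were 0.85 (SE 0.071) and 1.85 (SE 0.077), the latter a 3.60-fold higher level. By fold, Spry4 ranked 26, Spry2 83 and Spry1 97 from the highest among the 14833 genes tested with Y27632. With blebbistatin, Spry4 ranked 777, Spry2 2254 and Spry1 14215 of 14882. Blebbistatin libraries were also below every Y27632 library for both genes, with log2 differences of -0.85 (SE 0.069) for Spry2 and -0.99 (SE 0.076) for Spry4 (edgeR).

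**Figure D1:**
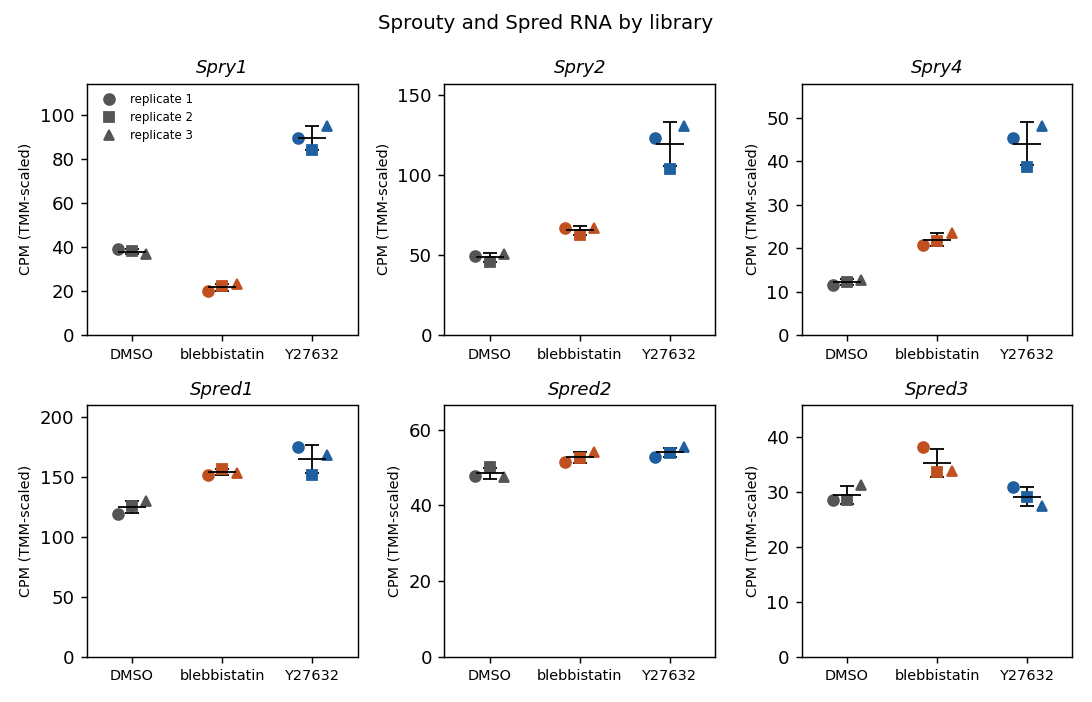
CPM (reads scaled to library size over all 9 RNA libraries with TMM factors, vertical axis from 0) of the 6 genes in DMSO, blebbistatin and Y27632 libraries, with a symbol for each replicate number, a bar at the mean and error bars of 1 SD (n = 3). Spry1 lies at 36.8 to 39.0 CPM in DMSO, at most 23.1 with blebbistatin and 84.2 to 95.2 with Y27632, whereas Spred2 stays between 47.4 and 55.3 CPM in every library.

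The Spred values lay nearer 0, at log2 changes of -0.02 to 0.40. Spred1, the Spred whose human counterpart is lost in Legius syndrome, had normalised counts of 3171, 3352 and 3441 in DMSO and 4037, 4126 and 4088 with blebbistatin. With Y27632 it had 4803, 4180 and 4648, against 3297, 3480 and 3575 in DMSO of that table. The treated libraries were above the DMSO libraries in both cases, with log2 changes of 0.30 (SE 0.037) and 0.40 (SE 0.049). Between the inhibitors Spred1 differed by -0.09 on the log2 scale, with a 95% interval of -0.177 to 0.003, and its libraries overlapped. Over 13 alternative settings, among them each library left out, that difference ranged from -0.14 to -0.04. It was -0.14 without replicate 2 of Y27632, the lowest of the 3, whose removal had to widen it.

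Spred2 had normalised counts of 1267, 1334 and 1257 in DMSO and 1367, 1380 and 1442 with blebbistatin. It had 1451, 1484 and 1530 with Y27632, against 1317, 1385 and 1306 in DMSO of that table. Spred2, like Spred1, carries an EVH1 domain and a Sprouty domain. Its log2 changes were 0.12 (SE 0.043) and 0.16 (SE 0.042). The value with blebbistatin no longer passed the threshold without DMSO replicate 1 (0.11), DMSO replicate 3 (0.10) or blebbistatin replicate 3 (0.10), nor with DESeq2 (0.12). Between the inhibitors Spred2 differed by -0.02, with a 95% interval of -0.10 to 0.05.

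Spred3, the third Spred, had normalised counts of 762, 759 and 833 in DMSO and 1016, 890 and 904 with blebbistatin, a log2 change of 0.25 (SE 0.062). With Y27632 it had 849, 803 and 762, against 792, 788 and 866 in DMSO of that table, so these groups overlapped. That log2 change was -0.02 (SE 0.057), with a 95% interval of -0.13 to 0.09, and was 0.03 without DMSO replicate 3. Spred3 was higher with blebbistatin than with Y27632 by 0.28 (SE 0.062, edgeR) on the log2 scale.

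Counted over the family, 5 members passed an adjusted p under 0.05 as higher and 1 as lower with blebbistatin (limma). Of the 14882 genes tested 53% passed in either direction, 26.1% as higher and 26.9% as lower. The groups did not overlap for the same 5 and 1, against 60.2% of all genes, 30% as higher and 30.2% as lower. With Y27632, 5 passed as higher and none as lower, and Spred3 did not pass. Of 14833 genes tested 35.9% passed, 18.1% as higher and 17.8% as lower, and 48.1% had groups that did not overlap, 24.4% as higher and 23.7% as lower. Between the inhibitors 3 members were lower and 1 higher with blebbistatin, by edgeR and by groups that did not overlap. Of 14955 genes 53.1% passed, 26.9% as higher and 26.2% as lower, and 60.4% had groups that did not overlap, 29.7% as higher and 30.8% as lower. Nothing is read from these counts, since the members were chosen on these comparisons. The median log2 change of the 6 was 0.28 with blebbistatin and 0.82 with Y27632, and that of all genes tested was 0.00 in each. Both comparisons share the DMSO libraries.

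**Figure D2:**
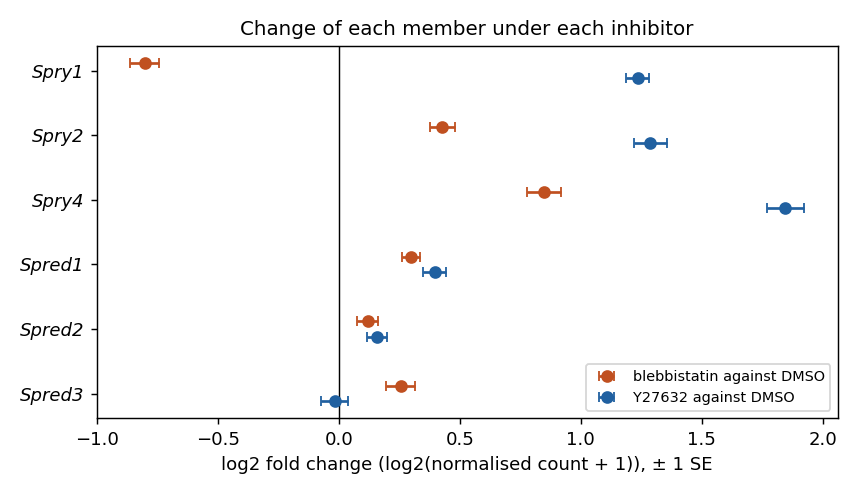
Log2 fold change against DMSO (horizontal axis, on the scale of log2(normalised count + 1)) of each gene with blebbistatin and with Y27632, with bars of 1 SE from limma. Spry1 lies on opposite sides of 0, at -0.80 and 1.24, and the Spred values lie between -0.02 and 0.40.

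Spry3, the Sprouty gene outside the 6, had 79.3 to 108.2 normalised counts in DMSO and 92.4 to 106.6 with blebbistatin. Its log2 changes were 0.05 with blebbistatin (SE 0.143, limma adjusted p 0.799) and -0.16 with Y27632 (SE 0.147, limma adjusted p 0.441), and neither passed the threshold.

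Across the 9 libraries, genes with at least 100 reads on average were ranked by Pearson correlation with each member, as a description, since the points share 3 treatment groups. The closest to Spry1 were Dusp1, a MAP kinase phosphatase (r = 0.998), Ttll4 (0.995) and Rspo2 (0.994). The closest to Spry2 were Sgk1 (0.996), Fos (0.993) and Zkscan3 (0.989). Spry4 was closest to Egr2 (0.993), Egr3 (0.993) and Prrx1 (0.992). For the Spreds the closest were Cp (0.989), Hk2 (0.985) and Nfe2l2 (0.979) to Spred1, Dhx57 (0.975), Wdr55 (0.971) and Csnk1e (0.962) to Spred2, and Gng8 (0.958), Rfxank (0.956) and Gm36556 (0.955) to Spred3. Within the family, r was 0.984 between Spry2 and Spry4, 0.734 between Spry1 and Spry2 and -0.754 between Spry1 and Spred3.

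Other genes of the receptor, Ras and ERK pathway were followed in 6 lists, which hold 91 genes, 89 of them tested. With blebbistatin 64 of the 89 passed the test, 27 higher and 37 lower, or 71.9%. With Y27632, 51 passed, 33 higher and 18 lower, or 57.3%. These shares stand beside 53% and 35.9% of all genes tested. By direction, 26.1% of all genes passed as higher and 26.9% as lower with blebbistatin, and 18.1% and 17.8% with Y27632. The lists were chosen with earlier results of these data known. Nothing is therefore read from these shares, and the adjusted p-values of list genes below are descriptive. In counts of list genes, rose and fell mean that a gene passed the test as higher or as lower.

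Among 14 ERK response genes, 8 rose and 4 fell with blebbistatin and 11 rose and 1 fell with Y27632, with median log2 changes of 0.42 and 0.79. Egr1, an immediate early transcription factor, changed by 1.78 with blebbistatin (SE 0.137, limma adjusted p 3.38e-07) and 2.52 with Y27632 (SE 0.102, limma adjusted p 2.99e-09). Phlda1, a further transcript induced by ERK, changed by 1.53 and 1.84 (limma adjusted p 2.76e-08 and 2.66e-07). Ccnd1, which encodes cyclin D1, fell with both, by 0.81 and by 0.50 on the log2 scale (limma adjusted p 2.23e-09 and 2.35e-07).

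Epha2 and Myc of this list changed in opposite directions, as Spry1 did. Genes of the other lists also did, such as Nras at -0.11 with blebbistatin and 0.20 with Y27632. Gab1 (0.19 and -0.29) and Lrig3 (0.41 and -0.20) were higher with blebbistatin and lower with Y27632. The share of all genes with opposite changes was not counted. Epha2, an ephrin receptor, had 1084, 1131 and 1089 normalised counts in DMSO and 530, 576 and 639 with blebbistatin, and with Y27632 it had 1707, 1587 and 1866 against 1127, 1174 and 1132. Its libraries did not overlap between groups in either table, and its log2 changes were -0.92 and 0.58 (limma adjusted p 1.47e-07 and 3.21e-06). Myc, a growth regulator named after its values were seen and so given without p-values, changed by -0.56 and 0.68. Between blebbistatin and Y27632 the log2 difference was -1.49 for Epha2 (edgeR adjusted p 3.93e-10) and -1.24 for Myc.

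Of 19 ligands of the receptors tested, none passed as higher, 12 passed as lower and 7 did not pass with blebbistatin. With Y27632, 4 passed as higher and 5 as lower. Fgf18 changed by -2.43 and Fgf5 by -2.23 with blebbistatin (limma adjusted p 4.58e-05 and 4.36e-06), both fibroblast growth factors. With Y27632 the epidermal growth factor receptor ligands Hbegf and Ereg rose by 1.79 and 1.75 (limma adjusted p 3.10e-09 and 4.18e-07), and Fgf5 and Hgf changed by -0.95 and -0.59 (limma adjusted p 7.34e-05 and 0.00273). Hbegf had 1712, 1434 and 1747 normalised counts with Y27632 against 490, 435 and 485 in DMSO. With blebbistatin Hbegf had 473, 509 and 547 against 472, 419 and 466 (limma adjusted p 0.0677), and the log2 difference between the inhibitors was -1.61 (edgeR adjusted p 6.91e-10).

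**Figure D3:**
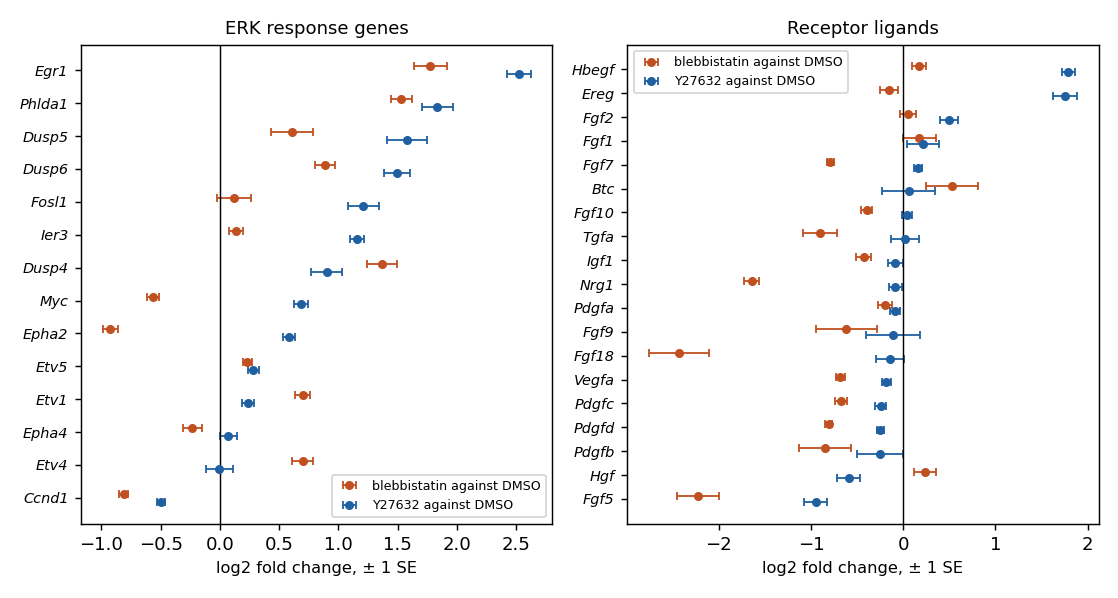
Log2 fold change against DMSO (horizontal axes, bars of 1 SE from limma) of the ERK response genes (left) and the receptor ligands (right), each with blebbistatin and with Y27632. Egr1 is the highest response gene with both, at 1.78 and 2.52, and Hbegf and Ereg lie at 1.79 and 1.75 with Y27632 and at 0.17 and -0.15 with blebbistatin.

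Of 13 receptors tested, 7 rose and 2 fell with each inhibitor. Fgfr2 and Egfr led the increases with blebbistatin at 0.75 and 0.70, and Pdgfra and Egfr those with Y27632 at 0.59 and 0.50. Igf1r was the lowest with both, at -0.41 and -0.17, followed by Erbb2 at -0.29 with blebbistatin and Pdgfrb at -0.12 with Y27632. Of 21 core genes, 5 rose and 12 fell with blebbistatin, with Ksr1 at 0.60 and Mapk3 at 0.36 the highest and Map2k1 at -0.50 and Rps6ka3 at -0.46 the lowest. With Y27632, 4 rose and 5 fell, with Nras at 0.20 among those that rose and Map2k2 at -0.22 and Gab1 at -0.29 the lowest.

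Genes whose products bind or modify Sproutys and Spreds numbered 10. With blebbistatin 1 rose, the Ras inactivator Rasa1 at 0.31, and 4 fell, led by Siah2, a ubiquitin ligase for Sprouty2, at -1.07 and Cav1, which encodes caveolin-1, at -0.42. With Y27632 2 rose and 2 fell. Nothing is read from these counts, which lie near the 53% and 35.9% of all genes tested that passed with each inhibitor. Nf1, which encodes the Spred partner neurofibromin, changed by 0.36 with Y27632 (SE 0.069, limma adjusted p 0.00137) and by -0.03 with blebbistatin (SE 0.065, limma adjusted p 0.721). Rasa1 changed by 0.31, Cav1 by -0.28 and Siah2 by -0.22 with Y27632. Of 14 other inhibitors of the pathway, 8 rose and 3 fell with blebbistatin, with Dusp6 at 0.89 and Dusp5 at 0.61 the highest and Rasal2 at -0.45 and Dusp7 at -0.39 the lowest. With Y27632 7 rose and 3 fell. Errfi1, an inhibitor of the epidermal growth factor receptor, rose by 2.98 and Dusp5, an ERK phosphatase, by 1.58 on the log2 scale, and Rasal2 and Lrig3 changed by -0.34 and -0.20.

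The labelled cell type was checked against markers. All 10 tendon fibroblast markers were above 1 CPM on average, with summed levels of 28200 to 32900 CPM over the 9 libraries, although Scx was at 2.40 CPM in DMSO. Of 5 immune markers 4 were above 1 CPM, with Cd3e at 0 in every group. Their sum was 47.5 to 54.5 CPM in DMSO, 67.0 to 79.0 with blebbistatin and 65.0 to 76.0 with Y27632, so it was higher in both treated groups, as Spry2 and Spry4 were. Endothelial markers summed to 121 to 123 CPM in DMSO, 77.9 to 87.5 with blebbistatin and 109 to 116 with Y27632, mostly from Tek, with Pecam1 at 0.217 to 0.342 CPM. Pericyte markers summed to 75.1 to 83.2, 85.1 to 96.7 and 82.4 to 103 CPM in DMSO, blebbistatin and Y27632, Schwann markers to 7.32 to 9.04, 13.2 to 14.4 and 8.75 to 10.9, and adipocyte markers to 9.86 to 11.3, 9.85 to 11.4 and 6.62 to 7.93. All 4 epithelial and all 4 skeletal muscle markers were under 1 CPM. The part of these markers in the results was not tested, and in bulk RNA fewer cells of a type and less RNA per cell cannot be told apart. Depth was 23375386 to 37061737 reads in genes per library.

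Chromatin sites annotated to the family were found in 2 of the 5 lists of sites that the authors deposited, and every site value below is theirs. The ATAC lists of blebbistatin (970 sites) and Y27632 (207 sites) against DMSO held none, nor did the list of blebbistatin without doxycycline (1231 sites). Each list was limited to an FDR of 0.05 or less. The smallest log2 fold in either direction was 1.0 in each of the 3 lists of the doxycycline experiment, 1.24 in the ATAC list of blebbistatin and 1.11 in that of Y27632. A site with a smaller change is therefore missing from them, and a site that is not listed has no value here. Of the sites tested, a number worked back from the p-values and FDRs, the ATAC list of blebbistatin holds 1.54%, 0.0271% as higher and 1.52% as lower, and that of Y27632 0.335%, 0.0502% as higher and 0.285% as lower. The list of blebbistatin without doxycycline holds 1.78%, 0.0174% as higher and 1.77% as lower.

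With doxycycline against neither drug, 6 sites were annotated to 4 members, all higher, in the authors' deposited table. That list holds 9.36% of the sites tested, 8.97% as higher and 0.388% as lower, and 95.85% of its 7613 sites were higher, with a median log2 fold of 1.16 for those. The Spry1 site, chr3:37639720-37640738 (mm10), was centred 282 bp after a start in an intron and had group means of 8.33 with doxycycline and 7.33 without, a log2 fold of 1.01 (FDR 2.45e-06). It covered 227 of the 250 promoter bases printed for Spry1, among them the TEAD motif.

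Spred1 and Spred2 had a pair of sites each in the authors' deposited table. A promoter site of Spred1, chr2:117120954-117121345, had group means of 7.89 and 6.81 and a log2 fold of 1.08 (FDR 4.36e-05), and covered 117 of the printed bases. A site in an intron of Spred1, chr2:117123118-117123329, 2153 bp after the start, had the largest log2 fold of the 6, at 1.66 (FDR 3.47e-09). The promoter site of Spred2, chr11:19923988-19924505, covered all 250 printed bases and had group means of 8.30 and 7.24 and a log2 fold of 1.06 (FDR 7.36e-07). The intron site of Spred2, chr11:19925985-19926093, had a log2 fold of 1.12 (FDR 0.00029). Spry4 had 1 site, at -355 bp from its start, with a log2 fold of 1.23 (FDR 2.20e-05). All 6 sites lay within 2500 bp of a start, where 25.5% of that list's sites lay. That limit is just beyond the farthest of the 6, at 2153 bp, and Spred1 and Spred2 each count with a pair of sites. Nothing is therefore read from the difference.

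With blebbistatin added to doxycycline, 2 sites were lower than with doxycycline alone in the authors' deposited table, in a list that holds 8.75% of the sites tested, 8.73% as lower and 0.0193% as higher. One was the same intron site of Spred2, with group means of 6.16 with doxycycline and 4.97 with both drugs, a log2 fold of -1.19 (FDR 2.50e-05). The doxycycline group is shared by both lists. The other, chr14:105999953-106000124, was intergenic, at -103220 bp from the start of Spry2, with a log2 fold of -1.32 (FDR 8.42e-05). The Spry1 site and the promoter sites of Spry4, Spred1 and Spred2 were not in that list, and no site was annotated to Spred3 in any list.

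**Figure D4:**
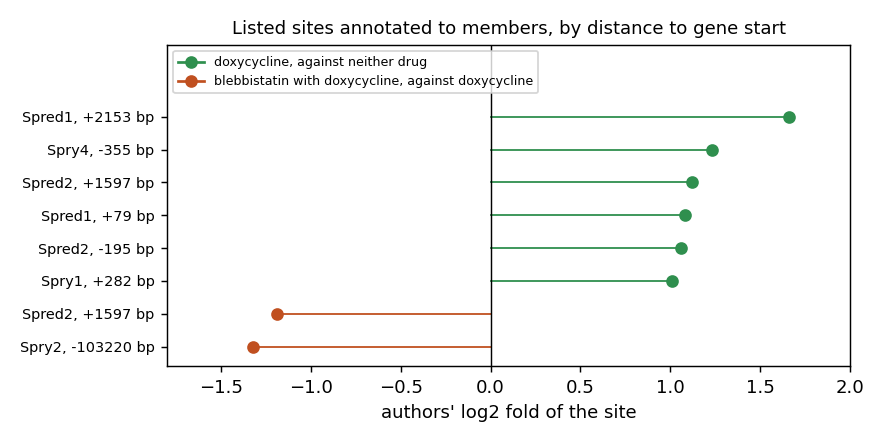
The authors' log2 fold (horizontal axis) of each of the 8 listed sites annotated to a member, labelled with the distance of its centre from the gene start in bp. The 6 sites of the doxycycline list lie at 1.01 to 1.66 and the 2 of the list of blebbistatin with doxycycline at -1.19 and -1.32.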

How the data were processed

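For RNA, the authors deposited a signal per gene, read counts scaled by a size factor for the library, in a table for each inhibitor. The values show it: 100% of those above 0 were whole multiples of 1 step (within 0.02 of a read), and recovered reads of the DMSO libraries were identical in both tables. The submitters' processing notes name mm10, HISAT2, featureCounts, DESeq2, Bowtie2, MACS2, DiffBind and HOMER without roles; versions, annotation and strand are not given in the sources used here. The site lists hold the authors' log2 group means, log2 folds and FDRs (adjusted p-values), per the file headers, and nothing per library. The doxycycline list heads its reference as blebbistatin alone. Over 13 sites shared with the list of blebbistatin alone, that reference was within 0.13 of the untreated mean and on average 1.12 above the mean it is headed as, and was read as untreated, as the labels place it.

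Genes whose normalised counts averaged 10 or more were tested with limma 3.58.1 (R 4.3.3, trend) on log2(normalised count + 1), a scale that understates changes of low genes. P-values were adjusted by Benjamini-Hochberg over all genes tested, and a gene passed under 0.05. Blebbistatin and Y27632 were compared with edgeR 4.0.16 (quasi-likelihood test, TMM factors) using reads recovered for 9 libraries, whose log2 differences were divided by the square root of F for the SE. Intervals are 1.96 SE. Reads of replicate pairs differed by more than sampling noise. Scripts were tested on simulated data. Named genes are the members, the 2 highest and 2 lowest called per list and treatment, and the 3 most correlated per member, except 1 gene that is not reported here. Myc falls outside this rule and was chosen after its values were seen. The members and lists were chosen with earlier results of these data known. Levels are not compared between genes, since transcript lengths were not used here.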

Additional observations from a re-analysis of the deposited data

How the results depend on the processing

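Alternatives were another pseudocount (0.5), no filter or a mean of at least 50, edgeR or DESeq2 on recovered reads, joint scaling, a replicate block, and each library left out. Under them every count of calls stayed within 1.5 times its value: 7894 genes with blebbistatin became 6994 to 7394 with a library left out and 6631 with DESeq2, 5328 with Y27632 became 4304 to 4839 and 4109, and 7935 between the inhibitors became 7166 to 7985 and 6866. Calls among pathway genes ranged from 60 to 63 and from 47 to 52 with a library left out, and 7 of the 8 sites lay within 100 kb. The direction of Spry1, Spry2, Spry4, Spred1 and Spred2 held in every alternative of all 3 comparisons. Spred3 with Y27632, not called, ranged from -0.0577 to 0.0258 with a library left out and reversed to 0.0258 without DMSO replicate 3 and 0.0206 without Y27632 replicate 3. The call of Spred2 with blebbistatin was lost in 6 of 13 alternatives: no filter, DESeq2, the block and 3 left-out libraries. Spred1 between the inhibitors became a call without a filter and without Y27632 replicate 2. With the replicate block the counts were 7604, 4633 and 7700, and 62 and 51 among pathway genes. The block ended the call of Spred2 with blebbistatin, at an unmoved log2 change of 0.12, and changed no other member's. Each gene's group mean was subtracted from its log2 values, and what remained was correlated between libraries of different groups. These remainders correlated from -0.087 to 0.043 between same-numbered libraries. They were closest to their own number in 2 of 18 comparisons, each with the 3 libraries of another group. No link by number was seen, but the labels give no culture or batch, so a shared one was not tested. The site lists give no depth.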

Other observations

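Replicate 2 of Y27632 was the lowest of the 3 Y27632 libraries for Spry1, Spry2, Spry4 and Spred1. It was also the lowest for 10 of the 11 ERK response genes that rose with Y27632, for 57.5% of the 174 genes whose Y27632 libraries all lay above DMSO with a mean at least 2-fold higher, and for 34.5% of all 14833 genes tested. Spred1 and some of the 11, such as Epha2 at a log2 change of 0.58, were less than 2-fold higher. The 174 are therefore not a like set, and nothing is read from the difference. Without replicate 2 the log2 changes with Y27632 were 1.28 for Spry1, 1.38 for Spry2, 1.94 for Spry4 and 0.45 for Spred1.

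Sites within 250 kb of the starts of Spry1, Spry2, Spred1, Spred2 and Spred3 were counted whatever gene the authors annotated them to, a count added after the sites annotated to the family had been seen. Spry4 was left out, since no start was matched for it. The list of doxycycline held 15, all higher, and that of blebbistatin with doxycycline 10, all lower. Of all sites in these 2 lists 95.85% and 0.22% were higher, so the directions are those of the whole lists. The list of blebbistatin without doxycycline held 4, all lower, 2 near Spry1 and 2 near Spred3. The ATAC lists of blebbistatin and Y27632 held 2 each, all lower. Of all sites in these lists 0.97%, 1.75% and 14.98% were higher, in the same order. Near Spry2, 6 sites were lower with blebbistatin and doxycycline and 1 was higher with doxycycline. The 6 were the largest count for any of these genes and lists, and 1 of them was annotated to Spry2. Sites near other genes were not counted, so nothing is read from the number.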
